A study of Mus musculus with 2 samples.

Results

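The genes described here are 10 negative feedback regulators of transforming growth factor β (TGFβ) signalling, namely Ski, Skil, Tgif1, Tgif2, Smad7, Smad6, Bambi, Smurf1, Smurf2 and Pmepa1. They were taken by name from the 22350 protein-coding genes of the annotation, and the measurement was the open chromatin around them. A peak was assigned to a gene when it overlapped the gene body or lay within 50 kb of it. By this rule 35 of 17784 distinct peaks in vehicle-treated cells and 54 of 22600 distinct peaks in cells treated with TGFβ for 2 h belonged to these genes.

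TGFβ binds receptor kinases at the cell surface, which phosphorylate SMAD2 and SMAD3, and these enter the nucleus with SMAD4 to regulate transcription. The pathway switches on its own inhibitors, and the genes described here act against it at several steps. Ski, Skil, Tgif1 and Tgif2 encode nuclear co-repressors that join SMAD complexes, Smad7 and Smad6 encode inhibitory SMADs that act at the receptors, Bambi encodes a receptor decoy without a kinase domain, Smurf1 and Smurf2 encode ubiquitin ligases that mark SMADs and receptors for degradation, and Pmepa1 encodes a membrane protein that holds SMAD2 and SMAD3 away from the receptor.

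Chromatin accessibility was mapped by DNaseI-seq, in which nuclei are cut briefly with DNaseI and places rich in short fragments are called as peaks. The cells were NMuMG, an established epithelial line from normal mouse mammary gland, and both groups were kept for 6 h in medium with neither serum nor insulin. The vehicle group then received carrier solution for 2 h, and the TGFβ 2 h group received TGFβ1 at 5 ng/ml for 2 h. The labels give the carrier in one place as HCl with albumin and in another as Tris-HCl with albumin. There was 1 peak list per condition, so that the spread between replicates was unknown and the conditions could not be tested against each other. Duplicates are mentioned in the series text and merged reads in the file list of the study. For ATAC-seq the study kept only peaks that were reproducible in both replicates, and DNaseI-seq followed that pipeline with its own options. Whether a peak listed here had to be found in both duplicates is not stated outright. The intervals below are exact binomial 95% intervals that cover the counting of peaks only. All peaks come from bulk cells, in which more cells with an open site and a more open site in each cell cannot be told apart.

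The lists hold a position and a score for each peak, with no read counts, so that the depth of either library could not be read from them. The study's reporting summary lists more reads for the vehicle library than for the TGFβ 2 h library, and the part of this difference in the peak numbers was not tested. The score runs from 540 to a ceiling of 1000 and ranks peaks within its own list. The ceiling was reached by 53.2% of all vehicle peaks and by 44.3% of all TGFβ 2 h peaks. Peaks at the starts of Cdh1, Krt8 and Krt18 were present in both lists, whereas the epithelial genes Epcam, Cldn4, Cldn7 and Krt7 had none in either. Of 5 mesenchymal genes Col1a1 and Zeb1 had a start peak in both lists, and none of 5 blood and immune genes or 3 endothelial genes had one.

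More peaks were called around the feedback genes after TGFβ than in vehicle. Of those called after TGFβ alone 18 of 21 were away from gene starts, as were 85.7% of such peaks in the whole list. The number of peaks was higher in the TGFβ 2 h list for 7 of the 10 genes, equal for Tgif2, Smurf2 and Bambi, and lower for none. Pmepa1 had 8 peaks in vehicle and 12 after TGFβ, Ski 4 and 8, Smad7 3 and 7, Smad6 4 and 7, Skil 2 and 4, Smurf1 6 and 7, and Tgif1 2 and 3. Among all protein-coding genes 33.7% had more TGFβ 2 h than vehicle peaks, and among the 10212 genes with a vehicle peak at their own start the share was 40.7%. When the longer TGFβ 2 h list was shortened by score to the length of the vehicle list, 47 peaks were left near the feedback genes, 7 genes still had more peaks than in vehicle, and Tgif2 had fewer, with a difference of -1. Where every deposited row was counted in place of distinct peaks, 4 genes had more rows after TGFβ (Pmepa1, Smad7, Ski and Smad6), 4 had fewer, and Smurf1 and Bambi had a difference of 0. The differences were then -1 for Skil, -1 for Tgif1, -2 for Smurf2 and -3 for Tgif2.

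**Figure D1:**
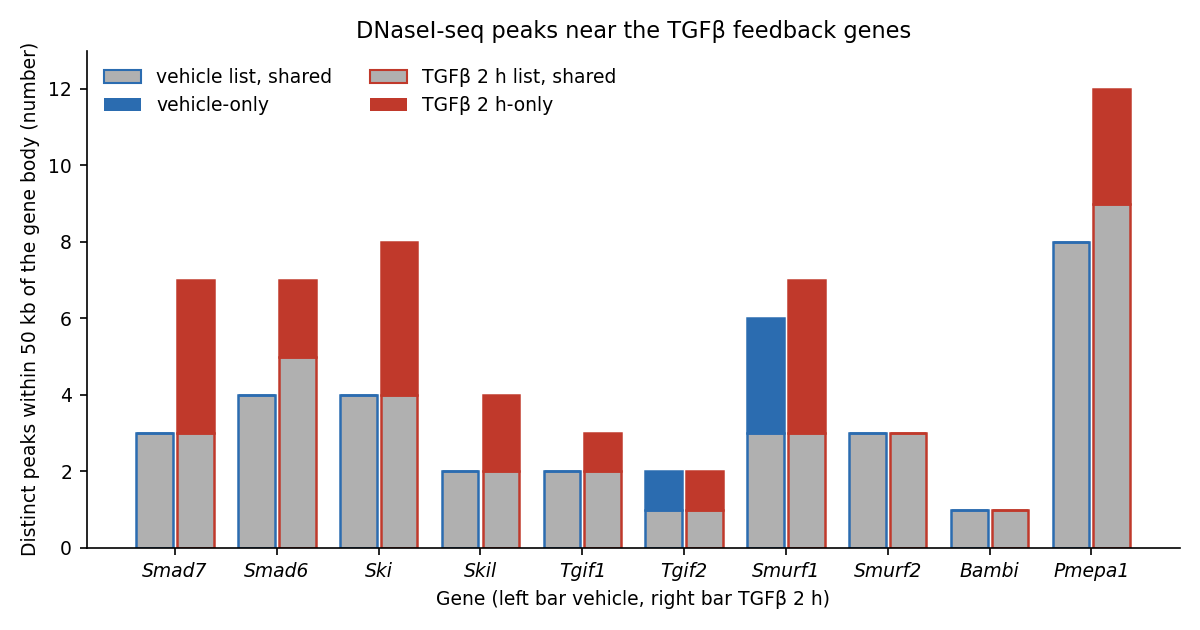
Number of distinct DNaseI-seq peaks within 50 kb of each feedback gene (left bar vehicle, right bar TGFβ 2 h), with peaks that overlap a peak of the other list in grey and unshared peaks in blue (vehicle-only) or red (TGFβ 2 h-only). Red segments stand on 8 of the 10 genes, with 4 peaks each at Smad7, Ski and Smurf1, and blue segments stand only on Tgif2 and Smurf1.

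Peaks that shared no base with any peak of the other condition are named TGFβ 2 h-only or vehicle-only after the list that held them. The name describes peak calls, and signal below the calling threshold may have been present in the other condition. TGFβ 2 h-only peaks lay near 8 of the 10 feedback genes, the exceptions being Smurf2 and Bambi, against 40.5% of all protein-coding genes and 49.5% of those with a vehicle peak at their own start. Vehicle-only peaks lay near Tgif2 and Smurf1, 2 of the 10 genes, against 25.9% of all genes. Smad7, Ski and Smurf1 each had 4 TGFβ 2 h-only peaks. There were 4 or more near 2.44% of all protein-coding genes and near 3.53% of those with a vehicle peak at their own start. The median gene of the group had 2.0 TGFβ 2 h-only peaks, compared with 0 over all protein-coding genes and 0 over those with a vehicle start peak.

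**Figure D2:**
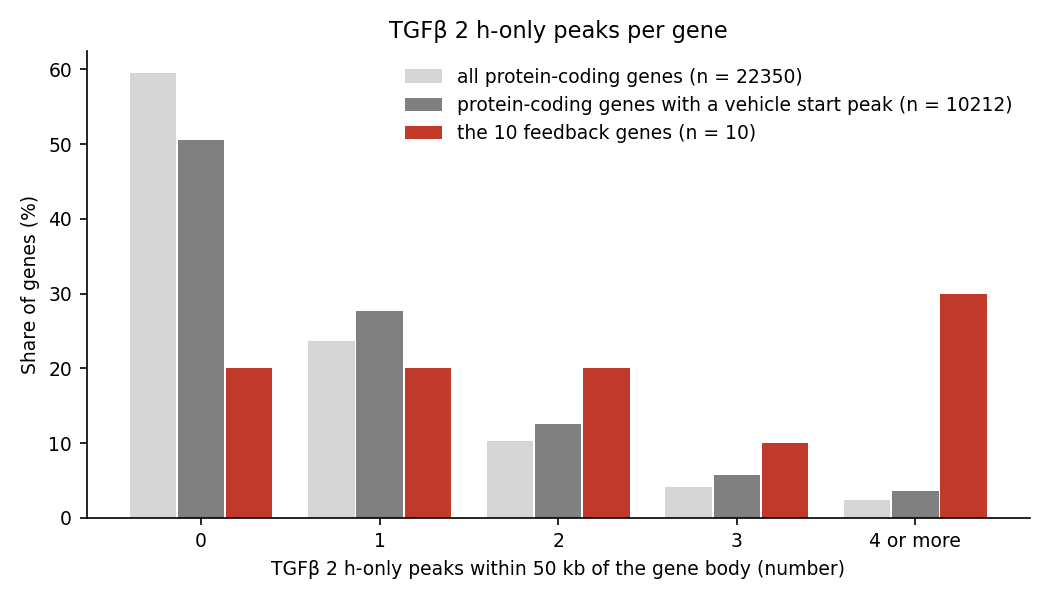
Share of genes (%) by number of TGFβ 2 h-only peaks within 50 kb, for all 22350 protein-coding genes (light grey), the 10212 with a vehicle peak at their own start (dark grey) and the 10 feedback genes (red). No such peak was found at 59.5% of all genes, 50.5% of genes with a vehicle start peak and 20.0% of the feedback genes.

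The windows around the feedback genes were rich in peaks of both lists. They spanned 1.47 Mb and held 23.8 vehicle and 36.8 TGFβ 2 h peaks per Mb. The windows of genes with a vehicle peak at their own start held 16.6 and 19.8 per Mb. TGFβ 2 h-only peaks stood at 14.3 per Mb around the feedback genes and at 5.37 per Mb around genes with a vehicle start peak, while vehicle-only peaks stood at 2.72 and 2.51 per Mb. These densities carry no replicate error, and peaks of one window share its surroundings.

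The share of peaks that were unshared was closer to that of the whole lists. Of the 54 TGFβ 2 h peaks, 21 were TGFβ 2 h-only (38.9%, 25.9 to 53.1), and 31.3% of all TGFβ 2 h peaks near protein-coding genes were. With peaks at the ceiling alone the share was 15.4% (4 of 26), and it was lower in the whole list (591 of 10007). No interval is given for this setting. Among the 34 distal peaks, which lie more than 1000 bp from every annotated start, 18 were TGFβ 2 h-only (52.9%, 35.1 to 70.2), against a background of 54.4%. Of the 20 peaks at a start, 3 were TGFβ 2 h-only (15.0%, 3.21 to 37.9), against a background of 9.92%. On the vehicle side 4 of 35 peaks were vehicle-only (11.4%, 3.20 to 26.7), and the background was 16.7%; without Smurf1, 1 vehicle-only peak was left. Each of these intervals contained its background value.

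The sequences below show the centre of the named distal TGFβ 2 h-only peaks of Ski, Skil, Tgif1, Smurf1 and Pmepa1, because each holds a consensus of the AP-1 family, whose members JUN and FOS act with SMADs at many TGFβ-responsive sites. Each is a 200 bp window around the peak midpoint, read 5′ to 3′ on the plus strand of NCBIM37 (mm9), and none overlaps an annotated exon. Capitals mark exact matches on either strand to the AP-1 consensus TGANTCA or to the SMAD-binding hexamer CAGACA, which reads TGTCTG on the other strand.
Ski, 23.5 kb downstream of the gene, chr4:154504271-154504470: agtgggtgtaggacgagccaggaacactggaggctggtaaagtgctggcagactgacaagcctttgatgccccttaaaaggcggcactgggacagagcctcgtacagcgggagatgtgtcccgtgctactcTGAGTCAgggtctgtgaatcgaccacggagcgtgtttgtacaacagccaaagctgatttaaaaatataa
Skil, 11.5 kb downstream, chr3:31033277-31033476: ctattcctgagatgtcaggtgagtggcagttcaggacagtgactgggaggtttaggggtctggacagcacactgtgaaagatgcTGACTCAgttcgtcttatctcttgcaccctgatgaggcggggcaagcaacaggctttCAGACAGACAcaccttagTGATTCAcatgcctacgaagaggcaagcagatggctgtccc
Tgif1, 7.02 kb downstream, chr17:71186259-71186458: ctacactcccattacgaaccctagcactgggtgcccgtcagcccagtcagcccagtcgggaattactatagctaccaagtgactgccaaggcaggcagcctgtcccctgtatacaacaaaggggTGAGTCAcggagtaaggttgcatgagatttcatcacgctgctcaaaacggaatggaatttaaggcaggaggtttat
Smurf1, first part of the gene, in an intron, chr5:145715388-145715587: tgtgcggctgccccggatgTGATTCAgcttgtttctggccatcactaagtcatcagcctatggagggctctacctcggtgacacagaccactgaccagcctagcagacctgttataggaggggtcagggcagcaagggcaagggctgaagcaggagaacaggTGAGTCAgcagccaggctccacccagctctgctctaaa
Pmepa1, 30.4 kb upstream, chr2:173132611-173132810: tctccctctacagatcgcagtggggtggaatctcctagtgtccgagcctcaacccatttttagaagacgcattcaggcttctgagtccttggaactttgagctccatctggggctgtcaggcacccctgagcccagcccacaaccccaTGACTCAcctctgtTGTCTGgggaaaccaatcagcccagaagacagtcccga
The Skil window held 2 AP-1 matches and 2 overlapping CAGACA matches, the Smurf1 window held 2 AP-1 matches, and the Pmepa1 window held 1 of each. The Ski and Tgif1 windows held 1 AP-1 match each.

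Ski (ENSMUSG00000029050.8, chr4:154528184-154596701, minus strand), which binds SMAD complexes and recruits histone deacetylases, had 4 TGFβ 2 h-only peaks and no vehicle-only peak. Its start peak was at the ceiling in both lists, with 775 bp in vehicle at chr4:154597138-154597912 and 535 bp after TGFβ at chr4:154597142-154597676. Of its 4 TGFβ 2 h-only peaks, 2 lay in introns and 2 downstream. The strongest, chr4:154504089-154504652, was at the ceiling and 42713 bp from the nearest vehicle peak, although the nearest coding start to it was that of Morn1 at 43.7 kb. The intronic pair scored 697 and 614, and the other downstream peak scored 676. One shared peak in an intron of Ski had the lowest width ratio of all pairs near the feedback genes, 1012 bp in vehicle and 353 bp after TGFβ. A further shared peak of the window lay at the start of the neighbour 2610002J02Rik.

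Skil (ENSMUSG00000027660.9, chr3:30993980-31021499, plus strand) encodes SnoN, the close relative of SKI. Its start lay under the widest peak near any of the feedback genes, 2212 bp in vehicle (chr3:30992647-30994858) and 2127 bp after TGFβ (chr3:30992651-30994777), at the ceiling in both. The peaks added after TGFβ were far from this start. The downstream peak chr3:31032993-31033759 scored 899 and was 38134 bp from any vehicle peak, with the start of Cldn11 nearest at 15.5 kb. The upstream peak scored 604 over 213 bp and was the narrowest TGFβ 2 h-only peak of the group, with the start of Prkci nearest at 18994 bp.

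Tgif1 (ENSMUSG00000047407.10, chr17:71193545-71202886, minus strand) and Tgif2 (ENSMUSG00000062175.6, chr2:156665813-156681306, plus strand) encode related homeodomain co-repressors of SMAD complexes. Tgif1 had start peaks at chr17:71199888-71200919 and chr17:71202090-71202700 in vehicle, and both were found after TGFβ at chr17:71200278-71200769 and chr17:71202030-71202673. The first of these spanned 1032 bp in vehicle and 492 bp after TGFβ, and the other 611 bp and 644 bp. A single TGFβ 2 h-only peak, chr17:71186194-71186522, scored 727 and had the start of Tgif1 as its nearest coding start, 9.31 kb away. Although Tgif1 had 1 peak more, the length covered by its peaks was lower after TGFβ, 1465 bp against 1643 bp.

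Tgif2 had no start peak in the vehicle list and was the only feedback gene without one. In the TGFβ 2 h list a 266 bp peak with a score of 574 lay over its start (chr2:156665587-156665852), 13480 bp from the nearest vehicle peak. A vehicle-only peak of 273 bp with a score of 548 lay over an untranslated or noncoding exon (chr2:156679333-156679605). Both scores were near the floor of 540, and the TGFβ 2 h-only peak was lost when the TGFβ 2 h list was shortened to equal length. The remaining peak of the window was shared, at the ceiling in both lists, and lay at the start of 1110008F13Rik.

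Smad6 (ENSMUSG00000036867.5, chr9:63800953-63869866, minus strand) encodes the inhibitory SMAD that acts mainly on the bone morphogenetic protein branch. In vehicle its only start peak, chr9:63870471-63871137, lay 605 bp upstream of the annotated start, scored 925 and spanned 667 bp. After TGFβ that peak was found again at chr9:63870695-63871174 with the ceiling score. A TGFβ 2 h-only peak at the ceiling, chr9:63869659-63870169, was present on the start itself, 301 bp from the vehicle peak. The other TGFβ 2 h-only peak lay 34.3 kb downstream and scored 581. The shared vehicle peak 27.5 kb upstream, at a further transcript start, overlapped 2 separate peaks after TGFβ, which is why Smad6 had 3 more peaks but 2 unshared ones.

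Smad7 (ENSMUSG00000025880.5, chr18:75527183-75555589, plus strand) encodes the inhibitory SMAD that blocks the activated TGFβ receptor and brings ubiquitin ligases to it. All 3 of its vehicle peaks were found again after TGFβ. The start peak was at the ceiling in both lists and spanned 1401 bp in vehicle (chr18:75526053-75527453) and 1543 bp after TGFβ (chr18:75526076-75527618). The 4 TGFβ 2 h-only peaks lay on either side of this start, with 2 upstream and 2 in introns. The strongest, chr18:75535001-75535568, was at the ceiling and 7547 bp from the nearest vehicle peak. It lay within 1000 bp of an internal start of Smad7, that of a transcript not annotated as protein-coding. Its nearest coding start was 5.65 kb away. A second intronic peak scored 810, and the upstream peaks, 41.7 kb and 4.04 kb from the gene, scored 677 and 566. Every peak in the Smad7 window had a start of Smad7 as its nearest coding start, and the length covered was 3312 bp in vehicle and 5850 bp after TGFβ.

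Bambi (ENSMUSG00000024232.1, chr18:3507955-3516402, plus strand) had the fewest peaks of the group. One peak lay over its start in each list, chr18:3507378-3508252 in vehicle and chr18:3507331-3508223 after TGFβ, and no other peak lay within 50 kb. The widths were 875 bp and 893 bp, and the score was 953 in vehicle and at the ceiling after TGFβ.

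**Figure D3:**
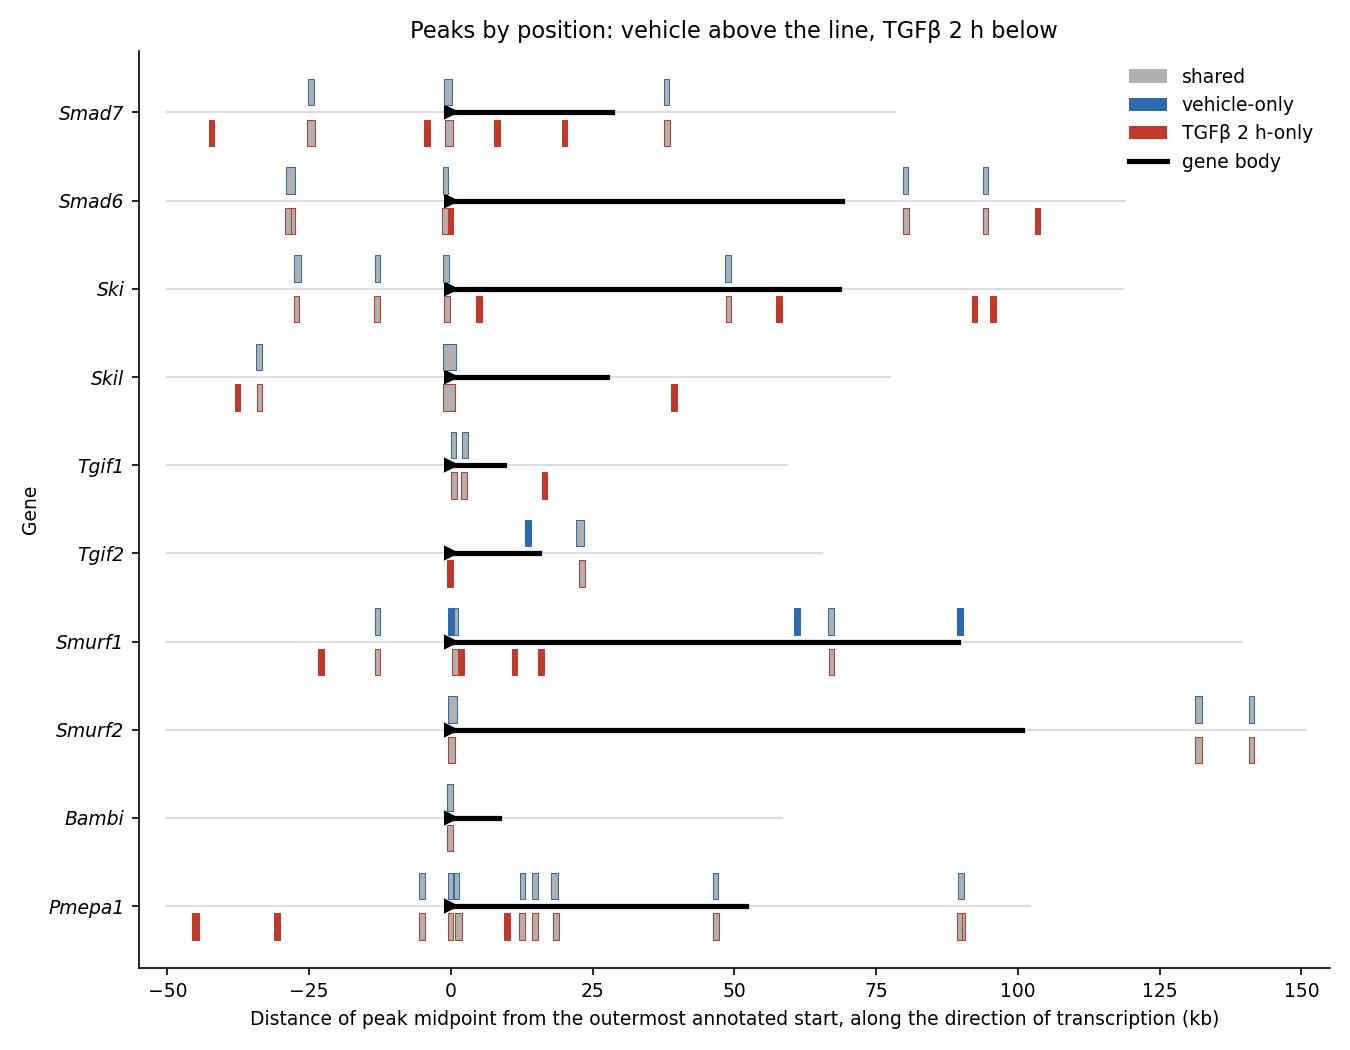
Position of each peak relative to the outermost annotated start of its gene (kb, along the direction of transcription), with vehicle peaks above and TGFβ 2 h peaks below each line, shared in grey, vehicle-only in blue and TGFβ 2 h-only in red. Black bars are gene bodies, and boxes under 1 kb are drawn 1 kb wide so that neighbours can touch. The 21 TGFβ 2 h-only peaks have midpoints 8 times upstream, 8 times inside and 5 times downstream of the genes.

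Smurf1 (ENSMUSG00000038780.8, chr5:145637364-145726716, minus strand) had unshared peaks in both lists, as did Tgif2, with 3 vehicle-only and 4 TGFβ 2 h-only peaks beside 3 shared ones. One of the vehicle-only peaks lay over the start (chr5:145726343-145727052), spanned 710 bp and scored 746, and only 77 bp parted it from a TGFβ 2 h peak. That neighbour, chr5:145725712-145726265, was at the ceiling and shared with the vehicle peak chr5:145725705-145726231. The other vehicle-only peaks, chr5:145636758-145637013 just downstream of the gene and chr5:145665514-145665901 in an intron, scored 560 and 547. Of the TGFβ 2 h-only peaks 3 lay in introns within 15.8 kb of the start, with scores of 948, 850 and 723, the strongest being chr5:145715290-145715684. The last lay upstream, scored 688 and had the start of Kpna7 nearest.

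Smurf2 (ENSMUSG00000018363.10, chr11:106681380-106782029, minus strand), the other ligase, had no unshared peak in either list. Its start peak was at the ceiling in both lists, 1588 bp in vehicle (chr11:106781018-106782605) and 1289 bp after TGFβ (chr11:106781231-106782519). Both of the other peaks in its window lay downstream at the starts of Polg2 and Ddx5, were shared, and were at the ceiling in both lists. Across its gene body of over 100 kb, no peak other than the start peak was called in either condition.

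Pmepa1 (ENSMUSG00000038400.8, chr2:173049959-173102034, minus strand) had the most peaks in both lists and kept all 8 vehicle peaks. Its outermost start lay under chr2:173101932-173102258 in vehicle (score 848) and chr2:173101874-173102280 after TGFβ (score 791). The neighbouring start peak spanned 418 bp in vehicle (chr2:173100811-173101228) and 1246 bp after TGFβ (chr2:173100008-173101253), the highest width ratio among the pairs near the feedback genes. Of its 3 TGFβ 2 h-only peaks, that at chr2:173132454-173132966 was at the ceiling and 25077 bp from the nearest vehicle peak. The peak further upstream at 44.4 kb was the widest of all TGFβ 2 h-only peaks of the group, 1258 bp with a score of 904, and the third, in an intron, scored 664. The covered length was 4731 bp in vehicle and 7372 bp after TGFβ.

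Unshared peaks were lower in the score order of their list and narrower than shared peaks, near the feedback genes as in the whole lists. The ceiling was reached by 4 of 21 TGFβ 2 h-only peaks, one each at Smad7, Smad6, Ski and Pmepa1, and by 22 of 33 shared peaks of the same list (66.7%). In the whole TGFβ 2 h list these shares were 7.77% and 62.8%. The median width was 511 bp for TGFβ 2 h-only and 644 bp for shared peaks, and in the whole list 436 bp and 723 bp. None of the 4 vehicle-only peaks was at the ceiling, against 15 of 31 shared vehicle peaks (48.4%), with 4.96% and 63.5% in the whole vehicle list. Of the 21 TGFβ 2 h-only peaks 19 lay over 1000 bp from any vehicle peak, as did 93.9% of such peaks in the whole list, and the exceptions, which no longer counted as unshared once such gaps were allowed, were at Smad6 (301 bp) and Smurf1 (591 bp). For 16 of the 21 the nearest coding start was that of the feedback gene itself.

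Most feedback genes had a start peak in both lists. A peak lay at an own start in both lists for 9 of the 10 genes, all but Tgif2, and for 43.8% of all protein-coding genes. TGFβ 2 h-only peaks at an own start were found for Smad7, Smad6 and Tgif2, 3 of the 10 genes, against 4.11% of all protein-coding genes. At Smad7 this was an internal start, that of a transcript not annotated as protein-coding. At Smad6 it was a start that already had a vehicle peak beside it, so that Tgif2 alone had a start peak after TGFβ and none in vehicle. Peaks at any start made up 17 of 35 vehicle peaks (48.6%, 31.4 to 66.0) and 20 of 54 TGFβ 2 h peaks (37.0%, 24.3 to 51.3), compared with 57.6% and 47.9% in the whole lists.

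Shared sites were compared through the 29 one-to-one pairs near the feedback genes, in which each peak overlapped its partner and no further peak. The median width ratio of TGFβ 2 h over vehicle was 0.962, with a range from 0.349 in the Ski intron to 2.98 at the Pmepa1 start, and 0.906 over all 13978 such pairs. After TGFβ the peak was narrower in 18 pairs (62.1%) and wider in 11 (37.9%), against 70.9% and 28.5% of all pairs. Within gene bodies alone the ratio was 1.02, so that the direction depended on the window.

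**Figure D4:**
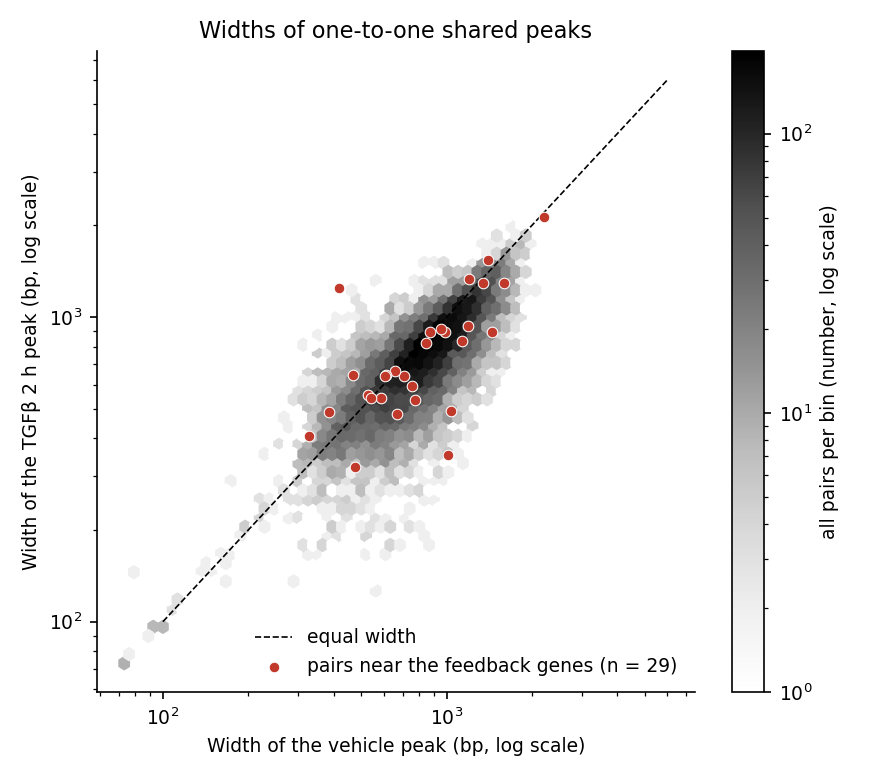
Width of the TGFβ 2 h peak against that of the vehicle peak (bp, both axes logarithmic) for the 29 one-to-one pairs near the feedback genes (red) and all 13978 pairs (grey bins, darker with more pairs). The dashed line marks equal width, and 18 red points lie below it and 11 above, with the Pmepa1 start pair highest above the line at 418 bp against 1246 bp.

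Consensus strings were searched as exact matches on both strands in the 200 bp around each peak midpoint. The AP-1 string TGANTCA was present in 8 of the 18 distal TGFβ 2 h-only peaks of the feedback genes (44.4%, 21.5 to 69.2) and in 32.1% of all 6519 such peaks. Among shared distal peaks it was present in 2 of 16 (12.5%, 1.55 to 38.3), and in 27.2% of all 5264. Both shares rose with the window, and over whole peaks the string was in 12 of 18 TGFβ 2 h-only (66.7%) and 6 of 16 shared distal peaks (37.5%) near the feedback genes, while over all distal peaks the shares were nearly equal, 51.8% and 50.5%. The matches in unshared peaks were at Smad7, Ski, Skil and Tgif1 with 1 peak each and at Smurf1 and Pmepa1 with 2 each, and the windows printed above are 5 of these 8 peaks. No match was found in the 3 distal vehicle-only peaks (up to 70.8%), against 10.3% of all distal vehicle-only peaks. With so few peaks every interval near the feedback genes contained the share of the whole list.

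**Figure D5:**
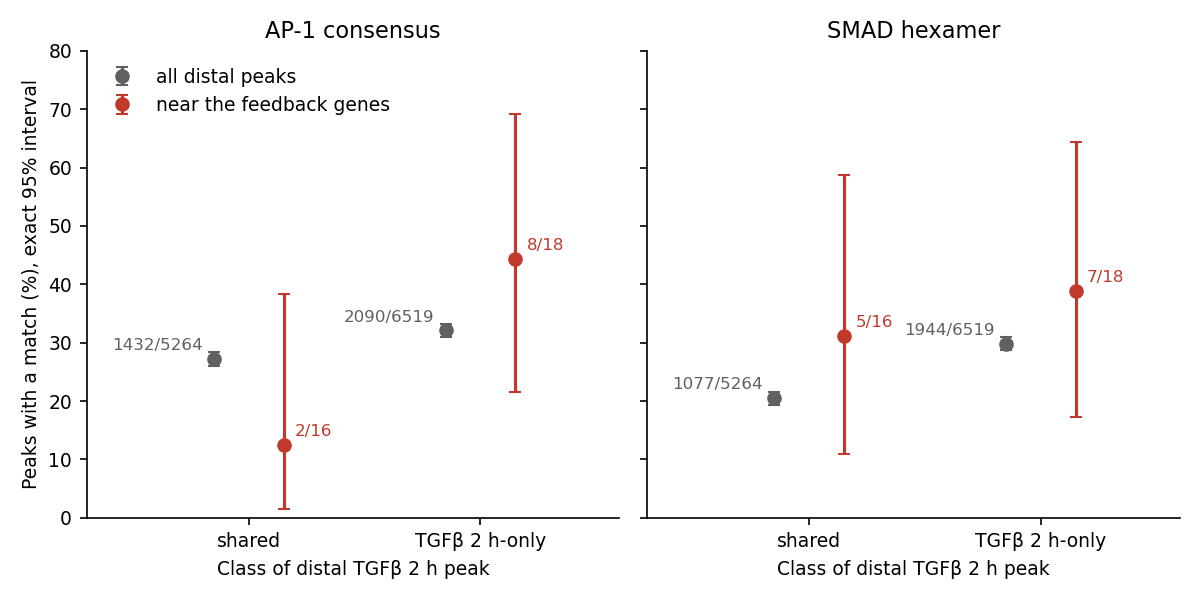
Share of distal TGFβ 2 h peaks (%) with the AP-1 consensus (left) or the SMAD hexamer (right) in the 200 bp around the midpoint, for shared and TGFβ 2 h-only peaks, near the feedback genes (red) and over all distal peaks (grey), with exact 95% intervals for the counting of peaks and the counts beside the points. The AP-1 share near the feedback genes was 12.5% in shared and 44.4% in TGFβ 2 h-only peaks, and each red interval contains the grey value beside it.

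The SMAD hexamer CAGACA was present in 7 of the 18 distal TGFβ 2 h-only peaks (38.9%, 17.3 to 64.3) and in 29.8% of all such peaks. All 3 TGFβ 2 h-only peaks of Pmepa1 held it, as did both of Skil and 1 intronic peak each of Ski and Smad7. The GC-rich SMAD string GGCGC was present in 1 of 18 (5.56%), against 10.2% of all, and the order turned in wider windows, with 27.8% against 16.1% in 400 bp and 27.8% against 17.6% over whole peaks. Strings in these windows could share bases, as 19 pairs among 145 matches did.

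The palindrome GTCTAGAC, a SMAD-binding element, is rare. In the 200 bp windows it was present in 2 of the 54 TGFβ 2 h peaks near the feedback genes (3.70%, 0.452 to 12.7), in 0 of their 18 distal TGFβ 2 h-only peaks (up to 18.5%), and in 0.336% of all TGFβ 2 h peaks. Over whole peaks it was present in 4 of these 54 peaks (7.41%, 2.06 to 17.9) and in 189 of all 22600 (0.836%). In the vehicle list it was present in 3 of 35 peaks (8.57%) and in 0.652% of all. The match of Smad7 began 353 bp upstream of its outermost start, in the start peak of both lists. The match of Smad6 began 4 bp upstream of its start and crossed it, in the TGFβ 2 h-only start peak. In both windows the interval near the feedback genes lay above the share of all TGFβ 2 h peaks, from 2 and 4 peaks only. The same was seen in the vehicle list, at 0.700 to 19.2 against 0.169% in 200 bp windows. Over whole vehicle peaks the interval was 1.80 to 23.1 against 0.652%. Several strings were searched, peaks are not replicates, and an excess of matches near these genes was not tested.

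The other palindromes were at Pmepa1, and are shown with their surroundings because one lay in a shared and one in an unshared peak of the same gene. They are read 5′ to 3′ on the minus strand of NCBIM37, which is the strand of Pmepa1, with the palindrome in capitals.
Pmepa1, intron, shared peak, chr2:173083648-173083677: cgagactgccaGTCTAGACatgtcactctg
Pmepa1, upstream, TGFβ 2 h-only peak, chr2:173147434-173147463: tggatttcacaGTCTAGACatcaagttctg
In the vehicle list the third match lay in the peak at the start of 2610002J02Rik in the Ski window, outside the narrower TGFβ 2 h peak at that site.

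Other genes of the pathway were counted in the same way for comparison. The 11 receptor genes had 37 vehicle and 49 TGFβ 2 h peaks, of which 16 were TGFβ 2 h-only (32.7%), and 5 genes had more peaks after TGFβ and 2 fewer. Of those 16 peaks 9 lay near Eng, a co-receptor. The 9 signalling SMADs and partners had 32 and 39 peaks with 12 TGFβ 2 h-only (30.8%), 6 of them near Smad3, and 3 genes had more peaks and 2 fewer. The 8 ubiquitin and phosphatase regulators had 25 and 27 peaks with 5 TGFβ 2 h-only (18.5%), and 1 gene had more and 1 fewer. In the feedback genes the corresponding share was 38.9%, with 7 genes higher and 0 lower. Its interval contained the shares of the receptor genes and of the signalling SMADs and partners. The 18.5% of the ubiquitin and phosphatase regulators came from 27 peaks only, and a difference between the gene sets was not tested.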

How the data were processed

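Reads were mapped by the authors to mm9 and handled as their ATAC-seq data were, with DNaseI-seq options that are not stated. The submitters' processing notes name MACS2 version 2.1.2 and deepTools. For ATAC-seq the methods state that peaks were kept when reproducible between replicates at an irreproducible discovery rate of up to 0.05. The deposited values are a MACS score per peak, and the vehicle list holds 70449 rows and the TGFβ 2 h list 68542, because intervals are repeated. Rows with equal chromosome, start and end were collapsed to distinct peaks.

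Peaks were compared by 1 bp of overlap with GENCODE M1 genes on NCBIM37, on 20 chromosomes, with Python 3.11.15, pysam 0.24.0 and SciPy 1.17.1. In each list 1 peak ended 37 bp past a chromosome end. A start peak overlapped 1000 bp on either side of a transcript start. Peaks with coordinates were the start peaks, the unshared peaks at the ceiling or at a start, the best-scoring unshared peak otherwise, and all vehicle-only peaks. Other peaks singled out for width or position were chosen after their values were seen. The overlap counting was checked on simulated intervals. The genes and lists were chosen with earlier results of these data known. Alternatives changed the distance, overlap, score threshold, unit counted, motif window and genes left out. Leaving out Ski, Smurf1 or Pmepa1 and the TGACTCA string were added after seeing the counts.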

Additional observations from a re-analysis of the deposited data

How the results depend on the processing

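The excess of TGFβ 2 h over vehicle peaks (19) and that of unshared peaks (17) near the feedback genes kept its sign in every setting tried. Within gene bodies there were 18 vehicle and 25 TGFβ 2 h peaks, 10 TGFβ 2 h-only peaks, and excesses of 7 and 7, and the width ratio turned to 1.02. Within 10 kb there were 32 TGFβ 2 h and 12 TGFβ 2 h-only peaks and excesses of 8 and 8, and within 100 kb there were 34 TGFβ 2 h-only peaks and excesses of 31 and 29. With every deposited row counted there were 143 vehicle and 178 TGFβ 2 h rows, 8 vehicle-only and 56 TGFβ 2 h-only rows, excesses of 35 and 48, and 4 genes with more and 4 with fewer TGFβ 2 h rows; the differences of Skil and Tgif1 reversed to -1 each, and those of Smurf2 and Tgif2, 0 in distinct peaks, were -2 and -3. Peaks at the ceiling alone gave 15 and 26 peaks, 0 vehicle-only (a share of 0%) and 4 TGFβ 2 h-only (15.4%), excesses of 11 and 4, 4 genes with a TGFβ 2 h-only peak, 0 with a vehicle-only peak, and 5 with a start peak in both lists. Shortening the TGFβ 2 h list gave excesses of 12 and 11. A reciprocal overlap of 50% gave 8 vehicle-only peaks at 5 genes. With peaks kept only where the feedback gene had the nearest coding start, 1 gene had a vehicle-only peak. Without Smurf1, 1 vehicle-only peak at 1 gene was left. The GGCGC share was 27.8% in 400 bp windows and 27.8% in whole peaks. For single genes, the difference in peaks stayed within 1.5 times of its value in 74 gene and setting combinations, moved further in 33 and reversed in 2. In the other settings these counts stayed within 1.5 times the reported value and shares within their intervals.

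No paired analysis was possible because there was a single list per condition. Peaks are not replicates, and a peak absent from a list is one that did not pass its threshold. The lists carry no depth, no correction for the larger number of vehicle reads listed by the study was possible, and scores cannot be compared between lists.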
